A study of Rattus norvegicus with 23 samples.

Results

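The genes described here are 10 markers of the endothelium, the cell layer that lines blood vessels, and of the endocardium, its counterpart on the inner face of the heart: Pecam1, Cdh5, Cldn5, Tek, Tie1, Nos3, Vwf, Emcn, Plvap and Sox17. They were found on the array through the transcript accession that the scanner files give for each probe, and 11 probes belonged to them, 2 for Vwf and 1 for each of the others. All 10 were among the 16084 genes tested, of 16538 with a symbol. RNA from 6 regions of the heart and great vessels of male Wistar rats aged 8 to 11 weeks was hybridized to 23 Agilent arrays. There were 4 arrays each of left atrium (LA), left ventricle (LV), sinoatrial region (SA), pulmonary vein (PV) and pulmonary artery (PA), and 3 of right ventricle (RV). The labels name no genetic change or agent for any group. The rats had been deeply anesthetized with pentobarbital sodium given with heparin, and the hearts and lungs had been flushed with a cold heparinized salt solution before dissection. The study used 12 rats for these 23 arrays, so some arrays, of the same or of different regions, must share a rat. Which ones do is not given in the sources used here, and all arrays were fitted as independent. Tissue of 2 rats made an SA sample, LA was the part next to the PV, RV was the free wall, and each LV was cut into several pieces that served as samples, so LV arrays may share an animal. Where nothing says that arrays of a region came from separate rats, p-values measure only the spread between these arrays.

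Endothelial cells are held to one another by adherens junctions built on VE-cadherin and by tight junctions built on claudins. The receptor tyrosine kinase Tie2, with its partner Tie1, receives angiopoietin signals that keep vessels quiescent. Endothelial nitric oxide synthase makes the gas that relaxes the smooth muscle beneath. Endothelium differs with its site: capillaries fill the working muscle of the ventricles, large arteries and veins have a single inner lining within a thick wall, and the thin-walled atria have a large endocardial surface for their mass.

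The share of an array's probes that were well above background ran from 58.6% to 79.8%, and 0 spots were saturated. The number of arrays limits the precision of what follows. Values are the authors' normalized signals, which have no physical unit, and differences are on the log2(signal + 1) scale unless a signal is named. Of the 10 members, 9 were well above background on all 23 arrays, and Sox17 was not. The regions carried the muscle markers of their labels: the mean log2 signal of 4 atrial myocyte genes was 18.34 in LA, 18.33 in SA and 18.16 in PV against 14.07 in LV and 13.20 in RV, and that of 4 ventricular genes was 17.18 in LV and 17.04 in RV against 12.78 to 13.02 in LA, SA and PV. PA lies outside the heart and stood lower on both lists, at 9.82 and 10.28. A single PA array, replicate 1, read 12.18 for the atrial list while the other PA arrays read 8.62 to 9.48, so the members' called differences in PA, except those of the dim Sox17 probe, are also given without it.

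The endothelial markers did not share one regional pattern. Tested over the 6 regions with limma's moderated F statistic, 8 of the 10 differed at an adjusted p below 0.05, where 64.4% of all genes tested did. Plvap was highest in LA and lowest in LV, Cdh5 was highest in both ventricles, Emcn and Tie1 were lowest in PA, and Nos3 was highest in LV. The largest gap between the highest and the lowest regional mean was 3.08 for Emcn, followed by 2.92 for Plvap, 2.18 for Cdh5 and 2.13 for Tie1. The gap was 1.05 for Tek, 0.99 for Nos3, 0.61 for Cldn5 and 0.56 for Pecam1. Sox17, which was dim, and Vwf, whose 2 probes ran in opposite directions, are left out of this order. Pecam1 (adjusted p = 0.10) and Cldn5 (adjusted p = 0.72) did not pass the test. Without PA replicate 1, Pecam1 passed the same F-test (adjusted p = 0.0077) and Cldn5 did not (adjusted p = 0.61). In bulk tissue, fewer endothelial cells and less of an RNA in each of them cannot be told apart.

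The first comparison set PA, an artery outside the heart, against the mean of the 5 regions that hold cardiac muscle. None of the members was called higher in PA and 6 were called lower, Emcn, Tie1, Cdh5, Sox17, Tek and Vwf, where 31.4% of all genes were called higher and 27.6% lower. The Vwf call turns with the probe, and with Vwf read from probe A_64_P114913 alone 1 member was higher and 5 were lower. The median difference was -0.42 over the 10 members and 0.05 over all genes tested. Without PA replicate 1 the median over the members was -0.65. Emcn codes for endomucin, a sialomucin on the surface of capillary, venous and endocardial cells that hinders leukocyte adhesion. Its signals on the PA arrays were 562.9, 202.0, 260.2 and 150.1. On the other 19 arrays they lay between 1121.7 in SA and 2518.1 in LV, so that PA did not overlap any other region. The log2 difference of PA from the other 5 regions was -2.62 (SE 0.21, adjusted p = 1.3e-09), a 6.14-fold lower signal, and it was -2.99 without PA replicate 1.

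Tie1, the orphan partner of Tie2 in the angiopoietin receptor complex, had signals of 289.6, 124.4, 138.4 and 127.1 in PA. It read 570.0, 811.7, 704.1 and 726.3 in LV, 409.5, 464.6 and 362.9 in RV, and 396.0, 321.2, 506.0 and 474.0 in PV. All PA arrays but replicate 1 lay below every array of the other regions, and replicate 1 lay within the range of LA and SA. The difference of PA was -1.43 (SE 0.20, adjusted p = 2.7e-06), and -1.71 without that array. Cdh5 codes for VE-cadherin, the adhesion molecule of endothelial adherens junctions. Its signals in PA were 520.4, 447.6, 330.9 and 373.1, which overlapped only PV, where 1 array read 406.1. For Cdh5 the difference was -1.24 (SE 0.13, adjusted p = 9.1e-08), and -1.35 without PA replicate 1.

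The first 250 bases upstream of the start were at hand for 5 of the 10 members in RefSeq's GRCr8 build of the rat genome. Those of the 3 members with the widest regional differences among these 5 are shown as a description. The capitals mark AGGAAG or its reverse complement CTTCCT, a motif with the GGAA core that factors of the ETS family bind, searched on both strands and chosen after the sequences were seen. Emcn lies at chr2:228564289-228564538 on the plus strand, Tie1 at chr5:137304982-137305231 and Plvap at chr16:18231280-18231529 on the minus strand, and each is written 5′ to 3′ along its gene.
Emcn: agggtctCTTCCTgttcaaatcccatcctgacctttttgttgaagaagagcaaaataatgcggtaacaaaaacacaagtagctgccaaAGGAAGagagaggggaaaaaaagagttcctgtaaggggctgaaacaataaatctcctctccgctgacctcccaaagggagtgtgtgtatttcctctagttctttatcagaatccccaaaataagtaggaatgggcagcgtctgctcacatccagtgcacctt
Tie1: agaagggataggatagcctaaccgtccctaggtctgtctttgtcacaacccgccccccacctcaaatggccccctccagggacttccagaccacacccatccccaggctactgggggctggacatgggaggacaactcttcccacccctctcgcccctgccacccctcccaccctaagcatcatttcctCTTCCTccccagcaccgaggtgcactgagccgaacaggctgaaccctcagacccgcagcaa
Plvap: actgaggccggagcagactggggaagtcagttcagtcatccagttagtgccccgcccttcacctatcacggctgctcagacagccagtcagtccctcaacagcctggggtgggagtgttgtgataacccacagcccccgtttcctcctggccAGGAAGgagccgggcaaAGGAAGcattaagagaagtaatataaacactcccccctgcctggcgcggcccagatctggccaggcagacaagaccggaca
The motif was in 4 of the 5 members' promoters, 2 times in Emcn, 2 times in Plvap and 1 time each in Tie1 and Nos3, and not in that of Cldn5. It was in 29.5% of 33469 rat promoters of the same length. The letters CAGGAA or TTCCTG, which hold the same core and can overlap the first motif, were in 3 of the 5, Emcn, Nos3 and Plvap, and in 24.7% of all. The letters TATAAA or their reverse complement were in 1 of the 5, Plvap, and in 12.9% of all. Such a match describes the letters and is not evidence of a bound site, and Emcn and Plvap hold the same number of copies although their regional patterns differ.

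Tek, the receptor Tie2, read 6963.4, 3649.7, 4702.7 and 3036.0 in PA, which overlapped every region but LV. Its difference from the other 5 regions was -0.50 (SE 0.17, adjusted p = 0.013). That call was lost without PA replicate 2 (-0.42, adjusted p = 0.069) or PA replicate 4 (-0.33, adjusted p = 0.11), and the difference was -0.73 without PA replicate 1. Sox17 codes for a transcription factor of arterial endothelium, and its probe was dim. It was well above background on 0 of 4 LA and 0 of 4 PA arrays, 1 of 4 in LV, 1 of 3 in RV, 1 of 4 in SA and 2 of 4 in PV. Its signals were 6.5 to 9.8 in PA, 7.3 to 13.4 in LA, 5.5 to 24.8 in LV, 13.7 to 35.9 in RV, 11.8 to 29.4 in SA and 22.6 to 54.0 in PV, and PA overlapped LA and LV. The Sox17 call in PA (fit adjusted p = 0.0042) comes from a probe that was not well above background on 18 of the 23 arrays, as do its other calls, so no size of a Sox17 difference is given.

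The remaining 4 members were not called in PA against the other regions. Nos3, the endothelial nitric oxide synthase, differed by 0.18 (95% interval -0.01 to 0.37), Plvap by -0.18 (-0.60 to 0.23), Pecam1, the junctional immunoglobulin protein CD31, by -0.15 (-0.46 to 0.17), and Cldn5, the claudin of endothelial tight junctions, by 0.07 (-0.53 to 0.66). The Nos3 interval stays within 0.40 of 0, while that of Cldn5 allows a change of more than 0.5 in either direction. Pecam1 signals in PA were 14129.1, 6575.4, 9154.9 and 7559.9, so that replicate 1 was above all arrays of SA, PV, LV and RV and the others were not. Without it, Pecam1 was lower in PA by a log2 difference of -0.37 (adjusted p = 0.024), and 7 members were called lower. Without it Plvap was at -0.34 (adjusted p = 0.21), Nos3 at 0.15 (adjusted p = 0.24) and Cldn5 at -0.21 (adjusted p = 0.58), so that the sign of Cldn5 rests on that array.

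Against PV, the vein that joins the LA, PA was lower in 5 members, Emcn, Tie1, Sox17, Cdh5 and Plvap, and higher in 1, Nos3, where 23.7% of all genes were lower and 29.7% higher. This comparison uses the same PA arrays as the one before. The median difference was -0.27 over the members and 0.13 over all genes, a shift of all genes that was 0.03 with quantile normalization. Without PA replicate 1 the median over the members was -0.44. Emcn read 1470.4, 1394.1, 1632.2 and 1488.3 in PV and differed by -2.53 (SE 0.27, adjusted p = 1.4e-07), and by -2.90 without PA replicate 1. Tie1 differed by -1.39 (SE 0.25, adjusted p = 9.7e-05) without overlap between the artery and the vein, and by -1.68 without PA replicate 1. Nos3 read 2119.5, 1523.7, 2445.3 and 2044.5 in PA against 1703.5, 1432.6, 1316.4 and 1308.1 in PV. Its difference of 0.49 (SE 0.12, adjusted p = 0.0016) is the only one of the 10 gene-level values in which the artery was higher and called, and PA replicate 2 lay within the PV range. Sox17 was measured on 2 of the 4 PV arrays and no PA array, and its readings were lower in PA (fit adjusted p = 0.00032). The PA and PV readings did not overlap. However, the lowest signals called well above background on the PA arrays were 17.2 to 35.5. That range overlaps the PV readings of 22.6 to 54.0, so the gap in readings does not show that the levels were apart. The calls for Cdh5 (-0.50, adjusted p = 0.020) and Plvap (-0.62, adjusted p = 0.048) lay close to the threshold. That of Cdh5 was lost without PA replicate 3 or 4 or PV replicate 1, 2 or 3 (adjusted p 0.053 to 0.077), and that of Plvap without any of 13 arrays, among them PA replicates 2, 3 and 4 and PV replicates 1, 2 and 4 (adjusted p up to 0.14). Without PA replicate 1 the differences from PV were -0.61 for Cdh5, -0.77 for Plvap and 0.46 for Nos3, all still called. Vwf was not called at gene level here, where the higher probe differed between the regions, and its probes taken alone were called in opposite directions, A_43_P21694 at -1.12 (adjusted p = 9.5e-08) and A_64_P114913 at 0.92 (adjusted p = 0.00095). With the second probe alone, 5 members were lower and 2 higher.

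**Figure D1:**
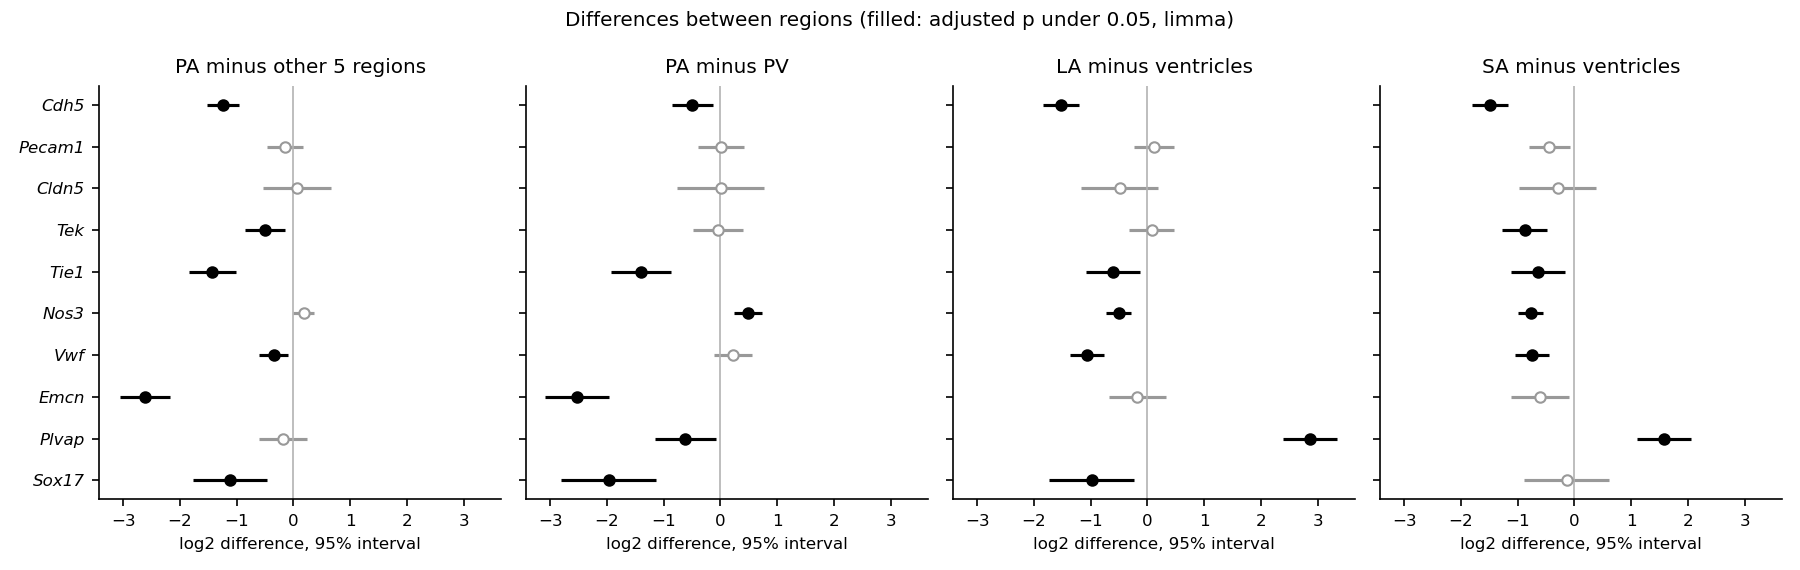
Log2 difference of each member with its 95% interval in 4 comparisons, filled where limma's adjusted p was below 0.05. Plvap is 2.86 above the ventricles in LA while Cdh5 is 1.52 below them, and Emcn has the lowest value in PA against the other 5 regions, -2.62. Vwf is drawn from the higher of its 2 probes on each array, and Sox17 from a probe near background, so that its position is not a measured size.

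The next comparison set LA against V, the mean of both ventricles, as the study joined LV and RV. In LA 5 members were called lower, Cdh5, Vwf, Nos3, Sox17 and Tie1, and 1 was called higher, Plvap, where 18.4% of all genes were lower and 16.9% higher. With Vwf read from probe A_64_P114913 alone, 4 were lower and 2 higher. The median difference was -0.50 over the members and -0.09 over all genes. Plvap codes for the protein of the diaphragms that span fenestrae and caveolae, and it is known from endocardium and fenestrated capillaries, while the continuous capillaries of heart muscle hold little of it. Its signals were 14535.7, 17046.9, 8310.5 and 10312.4 in LA. They were 2153.0, 1973.5, 1045.5 and 1462.9 in LV and 1351.8, 2405.3 and 1581.5 in RV. The lowest LA array thus read more than the highest ventricular array. The difference was 2.86 (SE 0.23, adjusted p = 8.1e-09), a 7.27-fold higher signal in LA. Sox17 was measured on 2 of the 7 ventricular arrays and no LA array. Its call (fit adjusted p = 0.039) was lost without LA replicate 1, 3 or 4, LV replicate 2, 3 or 4, or RV replicate 1 or 3 (adjusted p 0.052 to 0.098).

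Plvap was intermediate in the other regions. SA arrays read 5710.4, 5165.7, 4032.8 and 5194.0, PV arrays 5200.3, 5272.1, 4327.2 and 6336.0, and PA arrays 4667.6, 3438.4, 3217.2 and 2610.5. In the order of the Plvap means, LA stood above PV by 1.20 (adjusted p = 0.0032) and PA stood above RV by 0.98, while PV and SA, SA and PA, and RV and LV did not differ beyond their spread. SA was above the ventricles by 1.59 (SE 0.23, adjusted p = 2.2e-05), a 3.0-fold difference, and below LA by a log2 difference of -1.28 (SE 0.25, adjusted p = 0.0020).

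Cdh5 was highest in the ventricles. It read 1745.9, 1997.3, 1574.1 and 2254.3 in LV and 1891.1, 1529.0 and 2226.4 in RV. In LA it read 633.2, 616.0, 611.2 and 757.3, and in SA 589.2, 694.5, 666.2 and 727.9. The lowest ventricular array was thus at about double the highest array of any other region. LA differed from V by -1.52 (SE 0.15, adjusted p = 2.0e-07), 2.86-fold lower, and SA by -1.48 (SE 0.15, adjusted p = 3.9e-07). Among neighbours in the Cdh5 order, RV stood above SA by 1.48 and PV above PA by 0.50, while LV and RV, SA and LA, and LA and PV did not differ beyond their spread.

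Nos3 separated LV from the atrial regions. Its signals were 2579.6, 2913.4, 2807.5 and 2555.0 in LV, 2185.3, 2102.8 and 1745.1 in RV, 1676.6, 1713.6, 1621.7 and 1546.0 in LA, and 1405.5, 1366.3, 1304.1 and 1394.9 in SA. No LA or SA array reached the lowest ventricular array. The differences were -0.51 for LA against V (SE 0.10, adjusted p = 0.00074) and -0.77 for SA against V (SE 0.10, adjusted p = 1.3e-05). LV was above PA, next in the Nos3 order, by 0.43 beyond the spread. LV was also above RV on every array, but that difference of 0.44 (SE 0.13) did not pass the adjusted threshold (adjusted p = 0.14).

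Of the angiopoietin receptors, Tie1 was called in LA and Tek was not, and the difference between the 2 genes was not tested. Tie1 in LA read 425.1, 504.7, 263.2 and 267.4 and was below V by a log2 difference of -0.61 (SE 0.22, adjusted p = 0.042). In SA it read 413.8, 307.8, 288.6 and 373.4, a difference of -0.64 (SE 0.22, adjusted p = 0.039). For both Tie1 differences the groups overlapped RV. The LA call was lost without LA replicate 3 or 4, LV replicate 2, 3 or 4, or RV replicate 1 or 2 (adjusted p 0.056 to 0.16), and the SA call without the same LV and RV arrays or SA replicate 2, 3 or 4 (adjusted p 0.054 to 0.12). Tek read 8980.2, 10639.2, 6035.2 and 7445.3 in LA and 7477.6, 9145.5, 9080.5 and 9152.8 in LV, a difference from V of 0.08 (95% interval -0.32 to 0.47). It was lower in SA, at 4510.9, 4690.7, 3381.8 and 4338.6, and in PV, at 5338.5, 4232.9, 3531.8 and 5128.9. SA lay below every array of LA, LV and RV for Tek, by -0.87 against V (SE 0.19, adjusted p = 0.0015) and by -0.95 against LA (SE 0.21, adjusted p = 0.0048).

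Against V, SA shared these arrays of LV and RV with the LA comparison. In SA 5 members were lower, Cdh5, Vwf, Nos3, Tek and Tie1, and 1, Plvap, was higher, where 15.8% of all genes were lower and 12.3% higher. With Vwf read from probe A_64_P114913 alone, 4 were lower and 1 higher. The median difference was -0.62 over the members and -0.06 over all genes. Pecam1 read 7988.6, 7957.5, 7513.6 and 8302.3 in SA, below all 7 ventricular arrays, which read 9557.0 to 11445.4. Its difference of -0.44 (SE 0.17, adjusted p = 0.062) did not pass, nor did that of Emcn, -0.60 (SE 0.24, adjusted p = 0.071). Both passed when PA replicate 1 was left out of the shared estimate of the spread (adjusted p = 0.018 and 0.0062). That array belongs to none of the regions compared, so only the spread changed and the differences did not. Cldn5 varied within regions more than between them, for example from 956.3 to 2324.9 in LV and from 602.1 to 1542.1 in LA. Its intervals, -1.17 to 0.19 for LA and -0.98 to 0.39 for SA, allow a difference from V of more than 0.9.

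Vwf, the von Willebrand factor that platelets bind at a vessel injury, was the one member with 2 probes, and the probes had opposite regional orders. Both carry the same transcript accession. Probe A_43_P21694 read 40528.9, 31744.1, 31047.1 and 34903.1 in LV, 32574.6, 30301.7 and 31986.7 in RV, 13309.8, 13729.7, 15212.7 and 18001.7 in LA, and 6895.5, 7911.8, 5748.5 and 6734.2 in PA. Probe A_64_P114913 read 5793.7, 5899.5, 4323.0 and 6769.1 in LV, 6600.0, 10399.8 and 6053.9 in RV, 14890.6, 15146.9, 11024.1 and 13999.1 in LA, and 27197.7, 14332.6, 14986.9 and 14885.4 in PA. The first was highest in the ventricles and lowest in PA, and the second was highest in PA and lowest in LV, without overlap between PA and LV for either.

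Taken alone, probe A_43_P21694 of Vwf gave a difference of PA from the other 5 regions of -1.67 (SE 0.09, adjusted p = 3.1e-12), and probe A_64_P114913 gave 1.01 (SE 0.16, adjusted p = 2.1e-05). For LA against V they gave -1.14 (SE 0.10, adjusted p = 6.2e-08) and 1.08 (SE 0.19, adjusted p = 0.00014). For SA against V they gave -0.75 (SE 0.10, adjusted p = 1.8e-05) and 0.44 (SE 0.19, adjusted p = 0.094). The gene-level Vwf values, which take the higher probe on each array, were -0.35 for PA (SE 0.12, adjusted p = 0.021), -1.06 for LA against V (SE 0.14, adjusted p = 6.4e-06) and -0.75 for SA against V (SE 0.14, adjusted p = 0.00041). The higher probe was A_43_P21694 on all arrays of LV, RV, SA and PV and on 2 of LA, and A_64_P114913 on all PA arrays and on 2 of LA, so the direction of the Vwf calls depends on the probe. The gene-level call in PA was also lost without PA replicate 2, 3 or 4 (adjusted p 0.097 to 0.12), and was -0.57 (adjusted p = 1.4e-05) without PA replicate 1. Among 2031 genes with at least 2 bright probes, probes of 1 gene were called in opposite directions for 7.63% in PA against the other 5 regions, 1.67% in LA against V and 0.886% in SA against V.

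**Figure D2:**
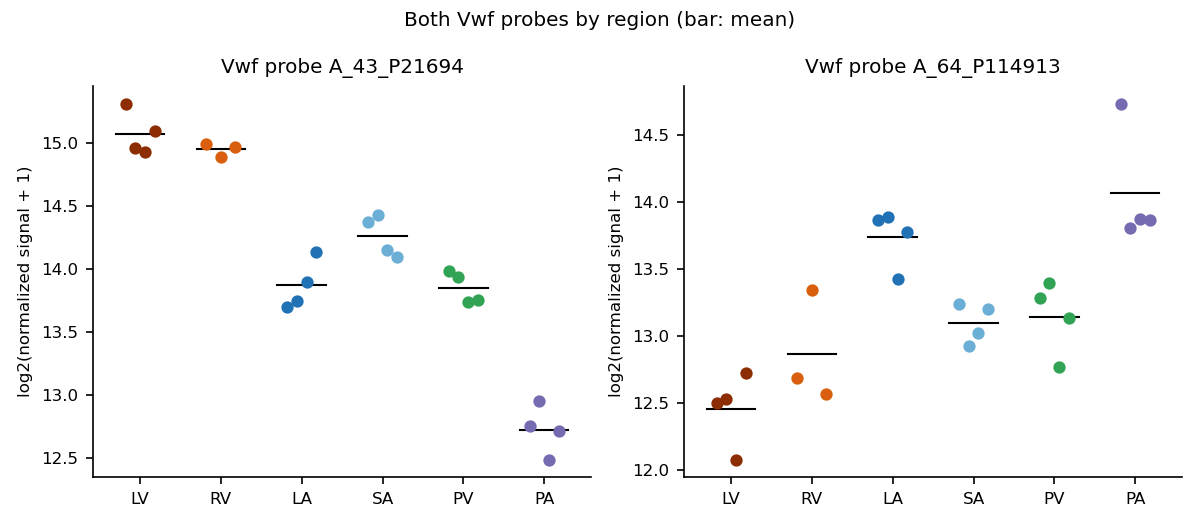
Log2(normalized signal + 1) of both Vwf probes on every array, by region, with the regional mean as a bar. Probe A_43_P21694 falls from a mean of 15.07 in LV to 12.73 in PA, and probe A_64_P114913 rises from 12.46 in LV to 14.07 in PA.

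The next comparisons were among LA, SA and PV. Against LA, SA was lower in 2, Plvap and Tek, and higher in 0, where 8.26% of all genes were lower and 7.03% higher. Without PA replicate 1, which bears on this comparison through the shared estimate of the spread, 3 were lower, Pecam1 being the third (-0.56, adjusted p = 0.016), and 1 was higher, Vwf (0.32, adjusted p = 0.036). In the fit of all arrays the Vwf probes were called in opposite directions here, A_43_P21694 at 0.39 (adjusted p = 0.029) and A_64_P114913 at -0.64 (adjusted p = 0.046). PV was lower than LA in the same 2, Plvap by -1.20 (SE 0.25, adjusted p = 0.0032) and Tek by -0.85 (SE 0.21, adjusted p = 0.011), and higher in Sox17, where 6.51% of all genes were lower and 6.99% higher. Sox17 read 22.6, 32.1, 32.3 and 54.0 in PV and 8.4, 13.4, 8.5 and 7.3 in LA (fit adjusted p = 0.0055). These readings did not overlap, but only 2 of them, both in PV, were well above background. On LA replicate 2 the lowest signal called well above background was 38.1, higher than every PV reading but 54.0. The levels may therefore overlap. Both comparisons use the same LA arrays. Between PV and SA limma called 0 of the 10, where 3.49% of all genes were called, and 2 had an unadjusted p below 0.05, Sox17 and Vwf. The Plvap interval of PV against SA was -0.46 to 0.60. Between LV and RV limma also called 0 of the 10, where 0.522% of all genes were called, and 2 had an unadjusted p below 0.05, Nos3 and Tie1 (0.76, SE 0.27, adjusted p = 0.26). Other settings of limma with all arrays called 0 in both of these comparisons.

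Over all 15 pairs of regions and 10 members, 67 of 150 differences were called, where 31.2% of the same differences over all genes were. The members also varied together from array to array. PA replicate 1 was above the PA mean for 9 of the 10 members, by 0.55 on average, and LA replicates 1 and 2, which lay on a slide that held neither of the other LA arrays, were above the LA mean by 0.18 and 0.30 on average while the others were at -0.31 and -0.18. Nos3 moved little among the LA arrays (SD 0.06). On PA replicate 1 the cardiomyocyte list read 13.96 against 12.40 to 13.61 on the other PA arrays, the erythroid list 10.78 against 9.01 to 9.49, and 17 further pan-endothelial genes 9.68 against 8.98 to 9.33. Their part in the member values of this array was not tested. Within each slide and each row of arrays that held the regions compared, all 29 called differences of the members kept their sign. There, Plvap in LA against V ranged from 2.51 to 3.52, Cdh5 in LA against V from -1.55 to -1.39, and Emcn in PA against the other 5 regions from -3.24 to -1.99. The slides and rows are parts of the same arrays that gave the calls, so the kept signs are no independent support. The 29 include calls of the dim Sox17 probe and of Vwf, whose direction turns with the probe.

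**Figure D3:**
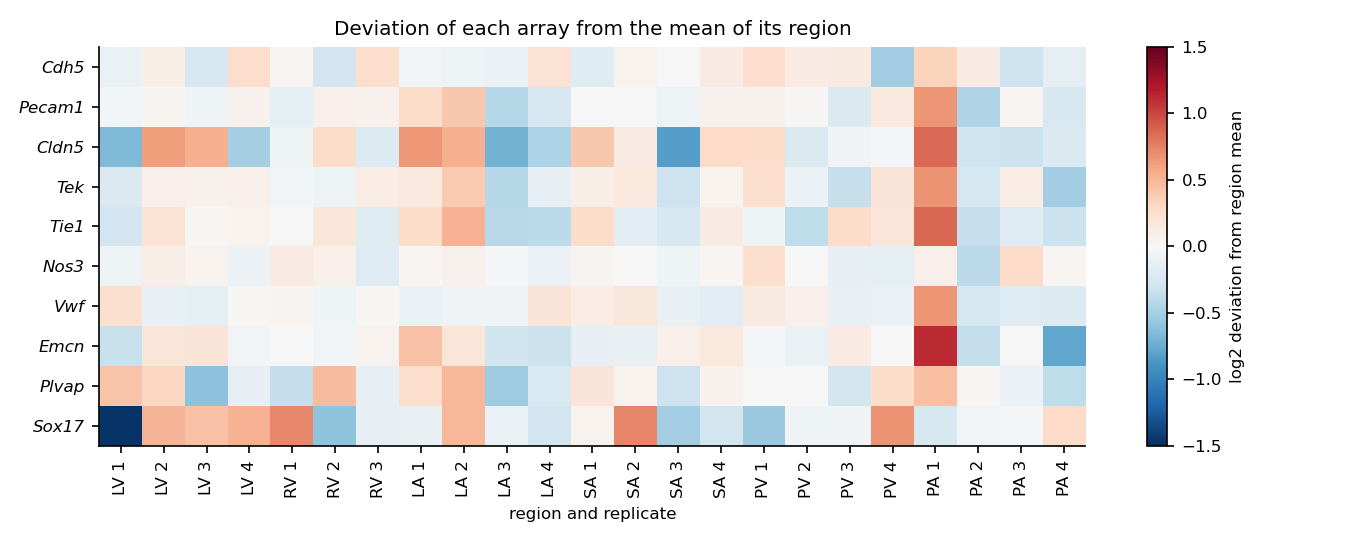
Deviation of each array from the mean of its region, in log2 units, for the 10 members. PA replicate 1 is above its region for every member but Sox17, and LA replicates 1 and 2 are mostly above while replicates 3 and 4 are mostly below.

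As a description over the 23 arrays, which share the 6 regions, Tie1 and Emcn had a Pearson correlation of 0.906 and still 0.80 after the regional means were removed. Pecam1 and Tek had 0.866, and 0.87 within regions. Plvap and Cdh5 had -0.64 over all arrays and -0.06 within regions. Among 13077 other genes well above background in a region, the closest to Emcn were Tspan13 (0.974), Itga6 (0.959) and Akr1b8 (0.956). The closest to Tie1 were Esam (0.947), an endothelial junction protein, Podxl (0.932), a sialomucin of the vessel lumen, and Ramp2 (0.926), the coreceptor for adrenomedullin. For Cdh5, Dctn6 (0.967) and Gng5 (0.960), which are not endothelial markers, were among the closest, and for Plvap they were Bex4 (0.953), Arrb1 (0.922) and Stat5a (0.922). For Tek they were Ttc9 (0.913), Arhgdib (0.908) and Dapk1 (0.891), and for Nos3 Laptm5 (0.881), Penk (0.878) and Gstp1 (0.869).

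Wider lists of genes place the members among their partners, and their counts read against the same shares of all genes called. Of 17 further pan-endothelial genes, 12 were lower and 0 higher in LA against V (median -0.64), 16 were lower and 0 higher in SA against V (median -0.68), and 12 were lower and 1 higher in PA against the other 5 regions (median -0.91). Clec14a, an endothelial lectin of the cell surface, was lower by -1.29 in LA against V and by -0.91 in PA. Adgrl4 was at -0.80 and -1.82, and Aplnr, the apelin receptor, at -1.08 and -2.34 in these comparisons. All 17 were well above background on every array.

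Of 8 capillary genes tested, 6 were lower and 0 higher in LA against V (median -1.15), and 6 were lower and 1 higher in PA (median -2.23). In SA against V, 4 were lower and 1 higher. Apln, the ligand of Aplnr, was at -2.99 in LA against V, -2.39 in SA against V and -3.0 in PA. Car4, a carbonic anhydrase on the capillary surface, was at -1.23 in LA against V and -4.48 in PA, and Cd36, a fatty acid transporter that heart muscle cells also express, at -1.27 and -2.44.

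Of 8 genes on the endocardial list, which holds Plvap and Emcn, 6 were higher and 0 lower in LA against V (median 1.87), while 2 were higher and 1 lower in SA against V, and 6 were lower and 0 higher in SA against LA (median -1.28). Without PA replicate 1, 2 were higher and 2 lower in SA against V. Npr3, the clearance receptor for natriuretic peptides, was higher by 3.39 in LA and by 2.96 in SA against V, and was at -3.75 in PA. Adgrg6 was higher by 1.99 in LA against V and was at -1.37 in PV against LA. Nfatc1, a transcription factor of endocardium and valves, was at 0.17 in LA against V (adjusted p = 0.31) and higher by 1.20 in PA. Emcn, on the same list, was not called in LA, and its interval against V was -0.68 to 0.33.

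Of 12 genes of the angiopoietin and VEGF system, 9 were lower and 2 higher in LA against V, 5 were lower and 1 higher in SA against V, and 6 were lower and 6 higher in PA. Kdr, the main receptor for VEGF, was at -1.12 in LA against V (SE 0.13, adjusted p = 1.6e-06) and -3.08 in PA (SE 0.12, adjusted p = 8.5e-15). Its ligands Vegfa and Vegfb were at -1.04 and -0.57 in LA and -2.20 and -3.07 in PA. The ligands of Tek were added outside the naming rule, after their values were seen. Angpt1, its activating ligand, was higher in LA than in V by 1.53 (SE 0.22, adjusted p = 1.9e-05) and was at -2.05 in PA. Angpt2, its context-dependent antagonist, was higher in PA by 2.69 (SE 0.15, adjusted p = 4.6e-12).

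Of 11 arterial genes, 5 were higher and 1 lower in PA, where 31.4% of all genes were higher, and 4 were higher and 1 lower without PA replicate 1. In LA against V 5 were lower and 0 higher, and likewise in SA against V. Gja5, the connexin of arterial endothelium and of atrial muscle, was higher in PA by 2.54 and was at -1.81 in LA against V. Jag1, a Notch ligand, was higher in PA by 2.10, and the receptor Notch4 was the lower one at -1.59. Of 9 venous and lymphatic genes, 4 were higher and 2 lower in LA against V, 2 were higher and 4 lower in SA against V, and 2 were higher and 2 lower in PA. Vcam1, an adhesion molecule for leukocytes, was higher by 2.24 in LA and 1.60 in SA against V, and by 3.77 in PA. Nr2f2, the venous and atrial transcription factor COUP-TFII, was higher by 1.80 in LA and 1.67 in SA. Lyve1, a lymphatic and macrophage receptor, was higher by 0.58 in LA against V and was at -0.77 in SA.

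Of 9 partners of nitric oxide synthase, 5 were higher and 2 lower in PA, and 4 were lower and 0 higher in LA against V, while 2 were lower and 1 higher in SA against V. Cav1, which binds and holds back the synthase and is also abundant in smooth muscle, was higher in PA by 1.54. Ddah1 and Ddah2, which break down inhibitory methylarginines, were higher by 1.70 and 1.49. Of 10 junction and adhesion partners of Cdh5 and Cldn5, 7 were lower and 0 higher in PA, and 4 were higher and 0 lower in LA against V, with 2 higher and 0 lower in SA against V. Jam2, an adhesion molecule of tight junctions, was at -1.93 in PA and higher by 0.82 in LA against V. Cldn1, a claudin of epithelia and mesothelium, was higher by 3.0 in LA against V.

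**Figure D4:**
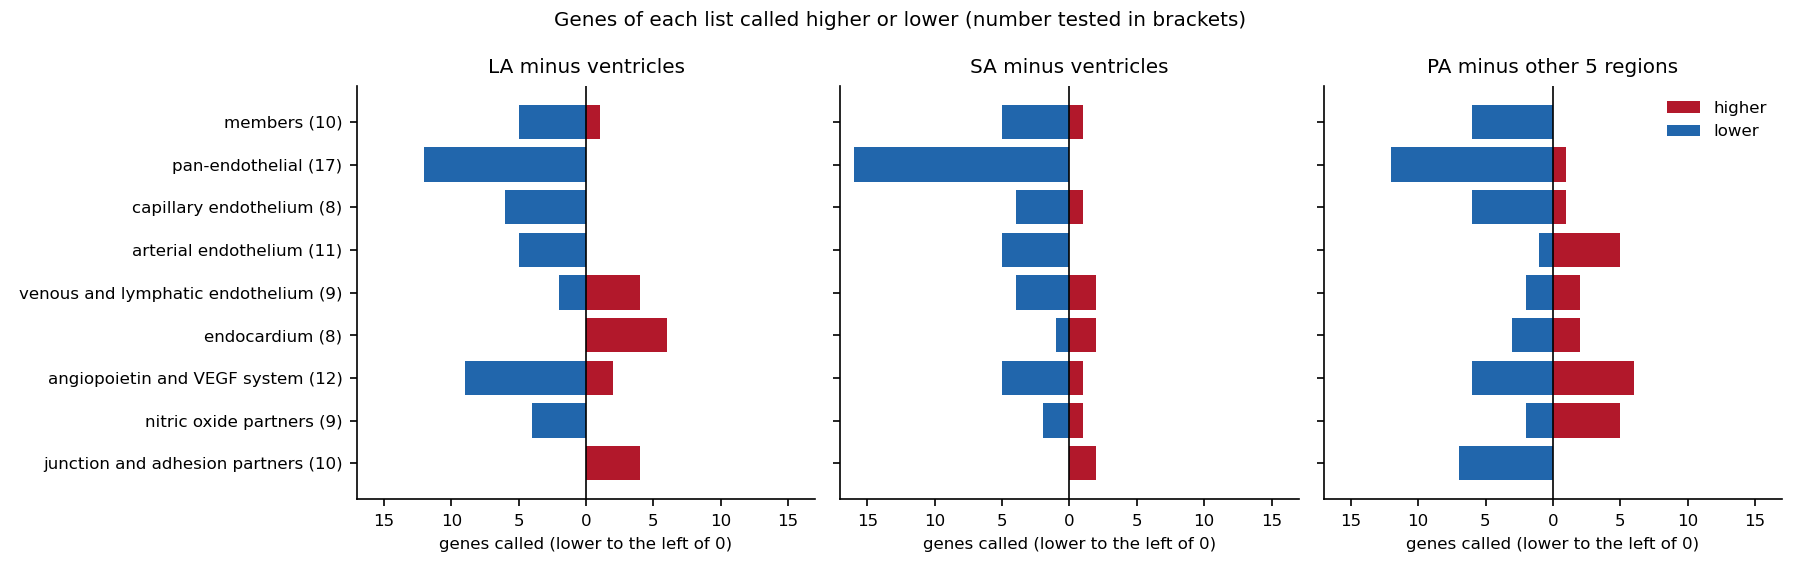
Number of genes of each list called higher (right of 0) or lower (left of 0) at an adjusted p below 0.05 in 3 comparisons, with the number tested in brackets. In LA against the ventricles the pan-endothelial list has 12 lower and 0 higher, and the endocardium list has 6 higher and 0 lower.

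Markers of other cell types moved with the same regions. Of 6 smooth muscle genes, 5 were higher and 1 lower in PA against the other 5 regions. Their summed signal was 515171.4 to 602116.8 in PA, against 62187.6 to 76730.8 in LA, 91494.3 to 101816.7 in LV, 86367.9 to 99354.9 in RV, 98522.6 to 113043.6 in SA and 100160.1 to 120729.3 in PV. Of 5 cardiomyocyte genes, all 5 were lower in PA, where the sum was 127783.3 to 197372.3 and at least 1372187.5 elsewhere. All 6 pericyte genes were lower in LA against V, 5 were lower in SA against V, and 4 were higher and 1 lower in PA. Pericyte sums were 15822.6 to 18212.5 in LA, 20333.0 to 23438.7 in SA, 23116.6 to 27301.7 in PV, 29479.8 to 36046.0 in LV, 29130.4 to 32580.6 in RV and 100417.9 to 122902.8 in PA. Of 3 mesothelial genes, which mark the outer covering of the heart, 2 were higher in LA against V, with sums of 21601.2 to 26563.5 in LA, 758.4 to 2499.0 in LV and 3337.5 to 6017.7 in RV. Smooth muscle genes in LA against V were 4 lower and 0 higher, and in SA 0 lower and 4 higher. The part of these cell types in the member results was not tested.

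Further lists are given by their counts, first in LA against V and in PA against the other 5 regions. Erythroid genes were 3 higher and 1 lower of 4 in LA and 1 lower in PA. Fibroblast genes were 0 called of 6 in LA and 3 higher and 2 lower in PA. Macrophage genes were 3 lower of 5 in LA and 2 higher and 1 lower in PA. Lymphocyte genes were 0 called of 4 in LA and 1 lower in PA, and in LA limma gave 0 fibroblast and 0 lymphocyte genes an unadjusted p below 0.05. Platelet genes, whose granules also hold von Willebrand factor, were 1 higher of 5 in LA and 2 higher and 1 lower in PA. Lung epithelial genes were 2 lower of 5 in LA and 1 higher and 1 lower in PA, adipocyte genes 1 higher of 3 in LA and 3 higher in PA, and Schwann cell genes 1 lower of 4 in LA and 3 lower in PA. Atrial myocyte genes were 3 higher of 4 in LA and 4 lower in PA, ventricular myocyte genes 3 lower of 4 and 4 lower, and sinoatrial pacemaker genes 1 higher and 2 lower of 4 in LA and 1 higher and 3 lower in PA. In SA against V, all 6 fibroblast genes were called, 2 higher and 4 lower. There 4 of 5 macrophage genes were lower, and erythroid genes were 3 higher and 1 lower of 4, with Hbb, a hemoglobin chain, higher by 4.35. Erythroid sums were 74545.0 to 143517.6 in SA against 9980.1 to 17673.7 in LV and 7967.9 to 10883.3 in RV. Also in SA against V, the lists gave 0 lymphocyte genes called (0 with an unadjusted p below 0.05 in limma), 1 higher for platelet, 2 lower for lung epithelial, 2 higher and 1 lower for mesothelial, 2 higher for adipocyte, 2 higher for Schwann cell, 1 higher for cardiomyocyte, 3 higher for atrial myocyte, 3 lower for ventricular myocyte and 2 higher for pacemaker genes. The part of these cell types in the member results for SA was not tested. Without PA replicate 1, the PA counts were 14 lower and 0 higher for the pan-endothelial list, 5 lower and 1 higher for the capillary list, 6 lower and 0 higher for the junction list, 4 higher and 2 lower for the nitric oxide partners, 4 lower and 2 higher for the endocardial list, 2 lower for erythroid, 1 higher and 1 lower for macrophage, 0 for lymphocyte and 1 higher and 1 lower for platelet genes.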

How the data were processed

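RNA of 23 samples was labelled with Cy3 and hybridized to single-color Agilent arrays. Per the file headers, Feature Extraction 11.0.1.1 gave every spot a linear intensity after background subtraction and spatial detrending. The deposited normalized intensity used for all results is the mean of that signal for each probe, which the authors had multiplied by 1 factor per array (0.881 to 1.52), after which the 90th percentiles lay between 3989 and 3998. The scanner files gave accessions, background flags, slide and row. The deposited table had 45596 probes, of which 156 with a missing value were removed, and 21040 of the remaining 45440 had a symbol through RefSeq's accession table. The methods' Ensembl conversion was not used.

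Each array's value for a gene was that of its brightest probe, and values were analysed as log2(signal + 1). Genes above 4 on at least 1 array were tested. Differences came from 1 fit of limma 3.58.1 (R 4.3.3) to all 23 arrays, with Benjamini-Hochberg adjustment over all 16084 genes, and a call is an adjusted p below 0.05. Tested on simulated arrays in which 200 genes differed by a log2 value of 1, the fit recovered 75.5% for PA against the other 5 regions, with 7 false calls, and 61.5% for PA against PV, with 5. No other simulated gene differed between regions, and the noise was independent between arrays. In the real fit 31.4% of genes were called higher and 27.6% lower in PA, so these figures are not its recovery or error rates. All members are named. Of each wider endothelial list, the 3 genes bright in a region with the smallest F-test p are named, and for members described as patterns the 3 genes of highest correlation, except for some that are not reported here. The members and lists were chosen with earlier results of these data known, and 13 list genes had no probe with a symbol. Alternatives were the scanner values, other scalings, filters, pseudocounts and probe rules, normexp, blocks for slide, row or replicate number, a prior trend, only the arrays compared, the methods' analysis of variance, and each array left out. Each Vwf probe alone was added after the data were seen. Plots were drawn with matplotlib 3.10.9.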

Additional observations from a re-analysis of the deposited data

Results flagged for a closer look

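In 9 of 60 sets of 4 arrays of 1 region, a single array of a member or Vwf probe stood apart, in that its gap to the nearest other array took up more of the whole range than Dixon's 95% critical value. Chance gives such a gap in about 1 of 20 sets. PA replicate 1 stood apart for Tie1 (289.6 against 124.4 to 138.4 on the other PA arrays, gap 0.874 of the range), for Cldn5 (2299.3 against 1021.6 to 1097.4, gap 0.912), and for Vwf (27197.7 against 14332.6 to 14986.9, gap 0.93), where the same values of probe A_64_P114913 also count as a set (gap 0.93).

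LV replicate 1 was low for Tek (7477.6 against 9080.5 to 9152.8, gap 0.961) and for the dim Sox17 probe (5.5 against 23.4 to 24.8, gap 0.96). LA replicate 4 was high for Cdh5 (757.3 against 611.2 to 633.2, gap 0.835). At gene level it was also high for Vwf (18001.7 against 14890.6 to 15212.7, gap 0.887), but these values join probe A_64_P114913 on LA replicates 1 and 2 with A_43_P21694 on 3 and 4, and neither probe alone met the criterion in LA. PV replicate 4 was low for Cdh5 (406.1 against 636.6 to 694.2, gap 0.838).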

How the results depend on the processing

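Apart from arrays left out, no alternative moved a count of called members by over 1.5 times. Over the alternatives the counts were 5 to 7 for PA against the other 5 regions, 5 to 7 for PA against PV, 4 to 6 for LA against V and 5 to 8 for SA against V. With each array left out in turn, they were 4 to 7, 4 to 6, 4 to 6 and 5 to 8. SA against LA had 2 to 4 and PV against SA 0 to 1, and both upper values, 4 and 1, arose without PA replicate 1, where Pecam1 was also lower and Vwf higher in SA against LA, and Vwf lower in PV against SA. Calls over pairs of regions ranged from 62 to 75.

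For single members, 455 of 470 values under these alternatives kept their direction and call, and 15 kept their direction and lost the call. With arrays left out, 805 kept both and 46 lost the call. The Tie1 calls in LA and SA against V, Sox17 in LA against V, Vwf in PA against the other 5 regions, and Cdh5 and Plvap in PA against PV lost theirs in 1 or more alternatives. The Vwf call in PA had an adjusted p of 0.43 with quantile normalization and 0.078 with normexp, and that of Sox17 in LA against V one of 0.062 with normexp and 0.085 with quantile normalization. Vwf reversed with probe A_64_P114913 alone, an alternative chosen after seeing the data: to 1.01 for PA against the other 5 regions, 1.08 for LA against V and 0.44 for SA against V. The cause was not tested.

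Replicate numbers are shared between regions. The median correlation of deviations was -0.04 over 55 same-numbered pairs (range -0.38 to 0.34) and 0.00 over 165 others. These medians cannot show whether same-numbered arrays shared a rat, since slide and row also bear on the deviations. With the replicate block, 6 members were called in PA against the other 5 regions, 6 in PA against PV, 5 in LA against V, 5 in SA against V and 66 over pairs of regions, and Tie1 was at -0.60 in LA against V (adjusted p = 0.057) and -0.63 in SA against V (adjusted p = 0.054). Arrays of the same slide deviated together more than others did (median correlation 0.11 against -0.06), as did arrays of the same row (0.09 against -0.10). With slide as a block the Tie1 call in SA against V was lost (-0.55, adjusted p = 0.088), and with the array row as a block those of Tie1 in LA against V (-0.58, adjusted p = 0.054) and Plvap in PA against PV (-0.58, adjusted p = 0.067). The dim Sox17 probe limits what can be said of that gene.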
